A study of Mus musculus with 14 samples.

Results

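Of 14 whole-fetus mouse libraries, 3 drew more than 6.8% of their deposited signal from 76 ribosomal protein genes, and these 3 are described here beside the remaining 11. The share was computed for each library over genes named as Rpl or Rps with a number, Rplp0, Rplp1, Rplp2 and Rpsa. It was 15.7% in let-7f male 1, 9.41% in vehicle male 2 and 6.92% in vehicle female 1. Vehicle female 1 was the library just inside the threshold, and let-7f female 3, at 6.02%, was the one just outside. The libraries were selected on this measured share, so the contrast of ribosomal-rich with remaining libraries is a description and carries no test. In what follows, values of the ribosomal-rich libraries are in the order let-7f male 1, vehicle male 2 and vehicle female 1.

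The libraries came from wild-type fetuses (genotype WT) of the strain F1 C57BL/6Jx129S1/SvlmJ at E12.5, mid-gestation, when most organs are forming. As zygotes they had been injected with a let-7f-5p mimic, a synthetic copy of that microRNA, or with nuclease-free water alone as vehicle. All were then carried by CD1 recipient dams, and poly-A RNA of the fetus was sequenced. There were 2 let-7f males, 4 vehicle males, 3 let-7f females and 5 vehicle females. The ribosomal-rich libraries included 1 of 5 let-7f fetuses and 2 of 9 vehicle fetuses, or 2 of 6 males and 1 of 8 females. The labels tie no fetus to a litter or dam, so the p-values below measure the spread between these fetuses.

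Ribosomal proteins are the structural proteins of the large and small ribosomal subunits. Their messenger RNAs are short, abundant and shared by every cell type, and they begin with a terminal oligopyrimidine (TOP) tract, an uninterrupted stretch of C and T (U in the RNA) at the very start of the transcript. Through this tract the growth-regulating kinase mTOR sets their translation together, and several elongation and initiation factors carry the same kind of start.

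The starts of 11 genes are printed to show C and T runs near the annotated start. They are ribosomal protein genes, other translation genes described below, and short and long genes outside translation. Each line holds the 15 bases before and the 15 bases after the annotated RefSeq start on the gene's strand (build GRCm38.p6, with Atp5f1e listed as Atp5e), 5′ to 3′, and capitals mark the longest run of at least 8 bases that are each C or T.
Rpl14: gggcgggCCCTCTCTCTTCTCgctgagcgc
Rplp2: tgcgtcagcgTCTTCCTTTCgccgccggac
Rpl15: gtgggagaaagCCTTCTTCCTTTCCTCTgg
Rpl4: TTCCTTTTCCTgtgggagcagccgggtaga
Rack1: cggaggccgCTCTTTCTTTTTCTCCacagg
Fau: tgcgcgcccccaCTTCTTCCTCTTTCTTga
Eif3f: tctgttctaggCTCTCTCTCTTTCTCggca
Atp5f1e: ggcaggtccgcgtaccccaCCCCTTCCgct
Snrpd2: tcgccctgtacgccaaaggctggagcaacg
Kif5c: tgccgaggcggggcagaggggcgggcctgg
Hectd4: gggaaccccgcccccaagatggcgtcttac
The windows of the 4 ribosomal protein genes lie at chr9:120571502-120571531 (plus strand) for Rpl14, chr7:141447636-141447665 (plus) for Rplp2, chr14:18270972-18271001 (minus) for Rpl15 and chr9:64173372-64173401 (plus) for Rpl4. Those of the other translation genes lie at chr11:48800345-48800374 (plus) for Rack1, chr19:6057932-6057961 (plus) for Fau and chr7:108934400-108934429 (plus) for Eif3f. Outside translation they are chr2:174464087-174464116 (minus) for Atp5f1e, chr7:19149823-19149852 (plus) for Snrpd2, chr2:49619271-49619300 (plus) for Kif5c and chr5:121220204-121220233 (plus) for Hectd4. All 7 translation genes shown held a run, and of the 4 others Atp5f1e did. The run of Rpl4 lay wholly before the annotated start and that of Atp5f1e wholly after it.

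Such a run was found in 25 of the 56 ribosomal protein genes with a promoter in the RefSeq table (44.6%), against 1872 of 12501 other genes (15.0%). For a gene with several promoters the one with the longest run was taken, also for the starts printed above. Counted singly, 12.003% of all 32851 promoters there held a run. The search covered the gene's own strand only, and the annotated start can lie some bases from the start used in these fetuses. Within the ribosomal protein genes, the median difference between ribosomal-rich and remaining libraries was 1.26 (log2) for the 25 genes with the run and 1.29 for the 31 without it. Among other genes with a transcript under 1 kb, those medians were 1.09 for 70 genes with the run and 1.08 for 496 genes without it. The medians with and without the run were close in both sets. The ribosomal protein genes chose the libraries, and the search can miss a tract, so nothing about the tract is read from these medians.

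**Figure D1:**
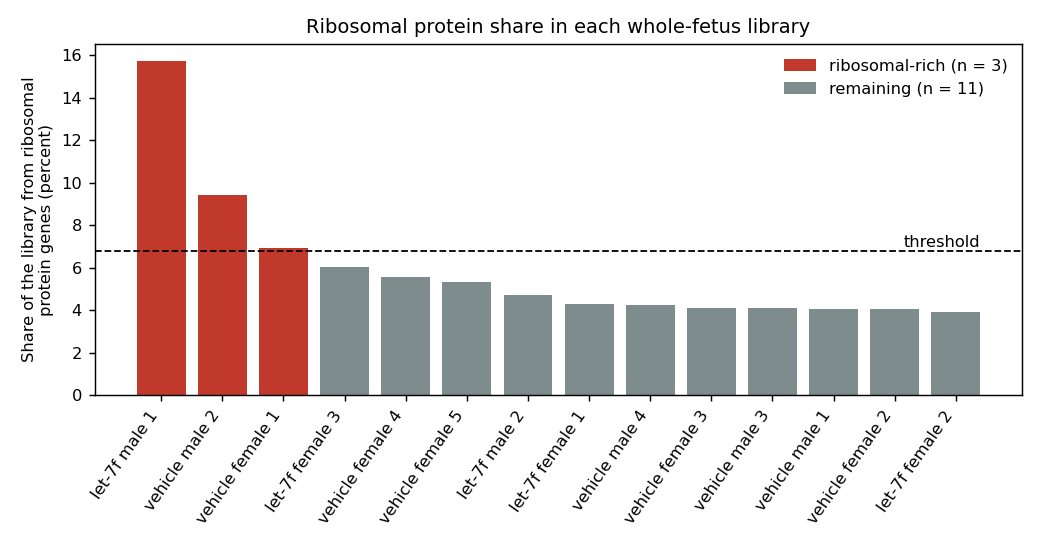
Share of each library's signal that came from the 76 ribosomal protein genes, in percent, by library. The 3 ribosomal-rich libraries (red, left) stand at 15.7%, 9.41% and 6.92%, and the remaining 11 (grey) between 3.91% and 6.02%; the dashed line is the 6.8% threshold.

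The libraries formed a graded series rather than a pair of separate blocks. After the 3 ribosomal-rich libraries came let-7f female 3 (6.02%), vehicle female 4 (5.58%), vehicle female 5 (5.32%) and let-7f male 2 (4.70%), and the other 7 lay between 3.91% and 4.31%. The ribosomal-rich libraries held 27709934, 37428257 and 32844289 reads, against 34157593 to 42898166 in the remaining libraries. One read of let-7f male 1 was worth 1.76 units, against 0.794 to 1.07 elsewhere, so its low values are the coarsest. Vehicle female 2 stood apart by its liver genes, with Alb at 43.8 against 10269 or more in every other library, and vehicle male 1 by its trophoblast genes. The part of sequencing depth or of RNA quality in the differences below was not tested.

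All 76 ribosomal protein genes had a higher mean in the ribosomal-rich than in the remaining libraries, as the rule of the split makes likely. Differences are given as the mean log2(value + 1) of the 3 ribosomal-rich libraries minus that of the remaining 11, which understates the change of genes with low values. The median over the 76 genes was 1.33, the lowest 0.47 and the highest 2.22. All 3 ribosomal-rich libraries lay above all 11 remaining libraries in 70 of the 76, beside 2539 of 17324 other genes (14.7%). That contrast chose the libraries, so nothing is read from this count. The 6 genes whose libraries overlapped were Rpl11, Rpl15, Rpl18, Rpl36, Rpl38 and Rps21. In each of let-7f male 1 and vehicle male 2, all 76 genes lay above every remaining library. In vehicle female 1, 70 did.

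The members differed widely in size, given here and below in the authors' normalized units (reads scaled by 1 factor per library, not divided by transcript length). Rpsa, a protein of the small subunit that is also known as a laminin receptor, had the highest undivided signal, at 485151, 159733 and 107259 in the ribosomal-rich libraries, against 58805 to 103977 (median 68188) in the remaining ones. Rps24, also of the small subunit, had 397625, 135603 and 87302, against 42131 to 75032 (median 46520). In both genes the groups did not overlap, and let-7f female 3 was the highest of the remaining libraries.

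Rpl36 of the large subunit had the largest difference (2.22), with 43193, 11085 and 4689 in the ribosomal-rich libraries and 1796 to 6156 (median 2781) in the remaining ones. Let-7f male 1 carried most of that difference, and vehicle female 1 lay below vehicle female 4. Rpl14, also of the large subunit, on chromosome 9 from 120571444 to 120574654 (plus strand, GRCm38, GENCODE M21), had 177232, 55566 and 33359, against 12758 to 30572 (median 16876), with no overlap. Rplp2, a protein of the ribosomal stalk, had 151074, 50576 and 28000, against 11976 to 23885 (median 15201).

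Other ribosomal protein genes differed little. Rpl15 of the large subunit had 26194, 21276 and 18151 in the ribosomal-rich libraries, against 13982 to 18179 (median 15309), a difference of 0.47 with overlap. Rplp0, the base of the stalk, had 58697, 56016 and 46178, against 30729 to 43596 (median 34919), a difference of 0.59. Rpl15 and Rpl14 both start with a long C and T run, as printed above, and stood near opposite ends of the range. The median difference was 1.35 over 30 genes of the small subunit (1.07 to 1.77) and 1.30 over 46 genes of the large subunit and stalk (0.47 to 2.22). Ribosomal protein genes have many processed copies in the genome, so reads may be split between a gene and its copies, and values of single genes are uncertain.

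Every other gene was then set against the length of its longest transcript, which was known for 16789 of the 17400 genes compared (96.5%; GENCODE M21, GRCm38). Short transcripts lay higher and long transcripts lower in the ribosomal-rich libraries, with ribosomal protein genes left out. The median difference was 1.03 for 299 genes under 600 bases, 0.91 for 859 genes of 600 to 1000 bases and 0.64 for 1563 genes of 1000 to 1500 bases. It was 0.36 for 1500 to 2000 bases, 0.11 for 2000 to 3000 bases and -0.12 for 3000 to 4000 bases. Longer genes had medians of -0.34 (4000 to 6000 bases), -0.52 (6000 to 8000 bases) and -0.60 (over 8000 bases). The order of the 9 class medians followed length without exception, while the median over all other genes was -0.01.

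Counts of genes whose libraries did not overlap also changed with length, though not in strict order. Over all 17324 other genes, 2539 lay higher (14.7%) and 2877 lower (16.6%) in all 3 ribosomal-rich libraries than in all 11 remaining ones. Under 600 bases, 30.4% lay higher and 3.01% lower, and at 600 to 1000 bases 47.5% lay higher and 2.44% lower. At 6000 to 8000 bases, 2.91% lay higher and 45.3% lower, and over 8000 bases 1.90% lay higher and 42.9% lower. With a difference of at least 2-fold as well, 934 other genes lay higher (5.39%) and 422 lower (2.44%). The 2-fold counts leaned on let-7f male 1, since without it 481 lay higher and 557 lower. Without vehicle female 1, the library nearest the threshold, 1823 lay higher and 890 lower.

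**Figure D2:**
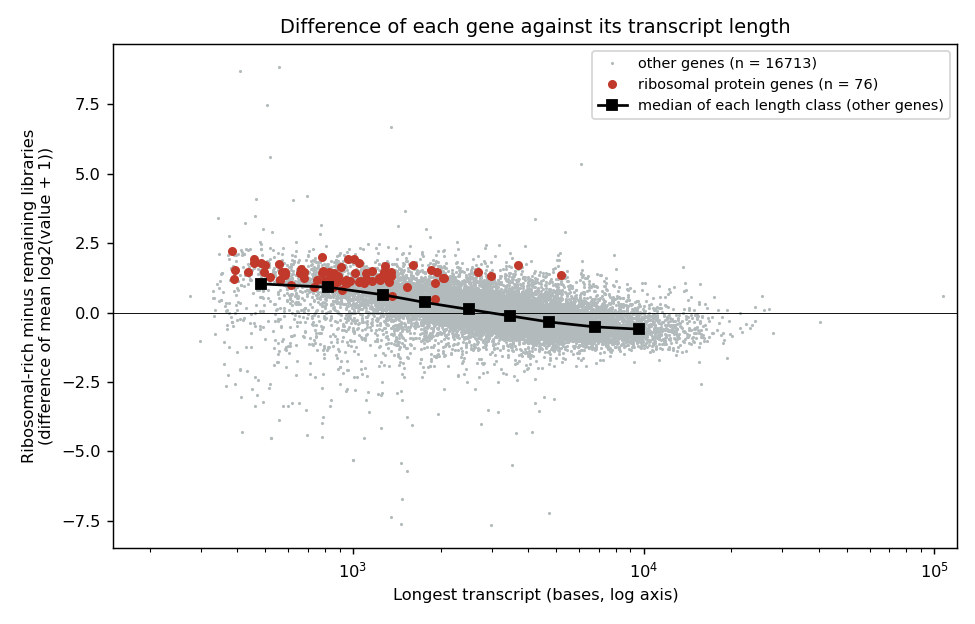
Difference between ribosomal-rich and remaining libraries (mean log2(value + 1), vertical axis) against the longest transcript in bases (log axis), 1 point per gene. Black squares are the medians of the length classes over other genes, from 1.03 under 600 bases to -0.60 over 8000 bases, and the ribosomal protein genes (red) lie between 0.47 and 2.22.

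The length gradient was present in each ribosomal-rich library and was graded among the others. A short-minus-long index was computed per library, after centring every gene on its own average, as the median log2 value of 1158 other genes under 1 kb minus that of 5542 genes over 4 kb. It was 1.52 in let-7f male 1, 1.07 in vehicle male 2 and 0.55 in vehicle female 1. Among the remaining libraries it was highest in let-7f female 3 (0.21) and vehicle female 4 (0.13), then vehicle female 5 (-0.05) and let-7f male 2 (-0.17). The other 7 lay between -0.45 and -0.36. The first 7 libraries thus came in the same order by this index, which uses no ribosomal protein gene, as by the ribosomal protein share. Both are parts of the same library and are not independent measurements.

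As shares of the library, other genes under 1 kb held 8.79%, 8.29% and 7.0% of the ribosomal-rich libraries, against 3.09% to 5.43% of the remaining ones. Genes over 4 kb held 24.9%, 28.8% and 33.1%, against 36.9% to 44.5%. In neither measure did the groups overlap.

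**Figure D3:**
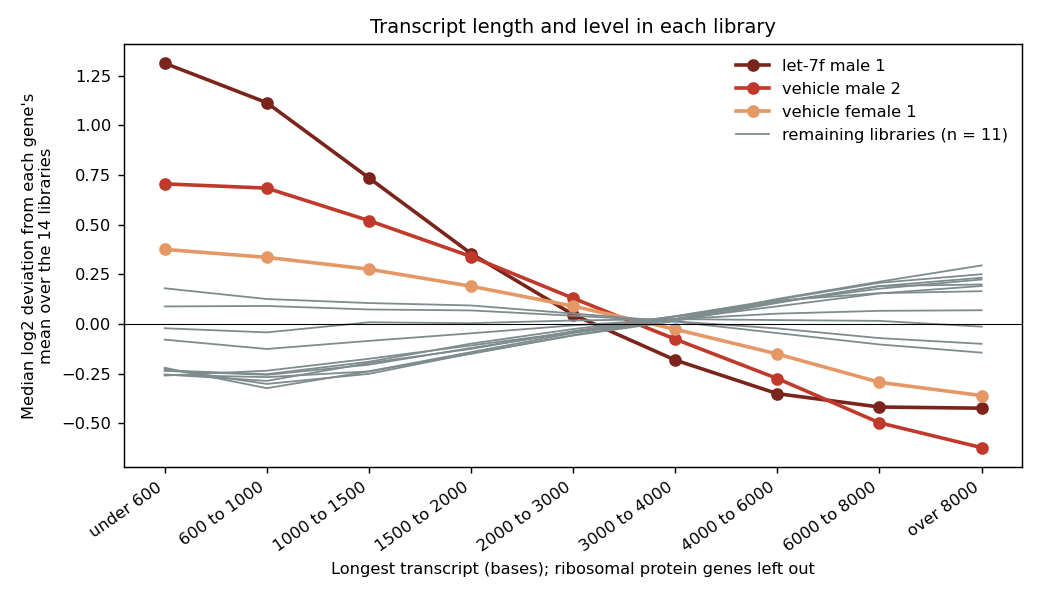
Median log2 value after centring each gene on its average (vertical axis) in 9 classes of transcript length (horizontal axis, bases), 1 line per library, ribosomal protein genes left out. The ribosomal-rich libraries slope down from 1.31, 0.71 and 0.38 in the shortest class to -0.42, -0.62 and -0.36 in the longest, and most remaining libraries (grey) slope the other way.

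Differences also varied with abundance and base composition. Among genes under 1 kb the median difference was 0.72 for genes with the lowest means (under 292), 0.996 for intermediate means and 1.14 for the highest (over 1563), the limits splitting all genes evenly. Among genes over 4 kb it was -0.25, -0.40 and -0.48 in the same order. By GC content of the transcript, genes under 1 kb had medians of 0.57 (under 47.0% GC), 0.85 and 1.11 (over 53.4% GC). Genes over 4 kb had -0.45, -0.45 and -0.28. Short genes lay higher than long genes at every level of either property, and within each length class GC-rich genes lay higher than GC-poor ones.

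Relative to the median of other genes in the same length class, the median difference of the ribosomal protein genes was 0.54, and 73 of 76 were above 0. These values come from the genes whose summed share chose the libraries, so nothing is read from them. By length, ribosomal protein genes had medians of 1.47 (16 genes under 600 bases) and 1.22 (27 genes of 600 to 1000 bases). The medians were 1.26 for 27 genes of 1000 to 2000 bases and 1.34 for the 6 longest. Nothing about length is read from these medians either. The 52 other short genes with a mean signal of at least 5000 had a median of 1.16, and 40 of them did not overlap.

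Proteins that are part of, or fused to, ribosomal proteins but outside the rule behaved alike. Of 10 such genes, 8 lay higher with no overlap (median 1.24). The counts of this and the following lists stand beside 14.7% of all other genes higher and 16.6% lower with no overlap. Fau, which encodes the small-subunit protein eS30 fused to a ubiquitin-like protein, had 95635, 31729 and 21095 in the ribosomal-rich libraries, against 9821 to 18755 (median 11744). Rack1, a scaffold on the small subunit, had 122748, 61275 and 44198, against 23772 to 38645 (median 25869).

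Other TOP transcripts of the translation machinery differed less. Of 22, 13 lay higher and 1 lower with no overlap, and the median was 0.54 (median transcript 1940.5 bases). Eef1d, a subunit of the elongation factor 1 complex, had 49692, 19788 and 14037, against 6967 to 12513 (median 8380). Tpt1, a growth-related protein with a classic TOP start, had 81078, 72843 and 61083, against 36587 to 52883 (median 39217). Eef1a1, the main elongation factor that delivers aminoacyl-tRNA, had 325175, 313466 and 290990, against 239664 to 290864 (median 263624), a difference of 0.23. Eef2, which moves the ribosome along the message and is among the classic TOP genes, had 95940, 105982 and 101049, against 81981 to 105903 (median 91852), so the groups overlapped. High abundance and a TOP start were thus found together with small differences as well as large ones.

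Translation initiation factors had a median of 0.48 (0.31 without let-7f male 1), with 10 of 24 higher and 2 lower, led by Eif6, which keeps the ribosomal subunits apart (1.76). Its values were 22871, 7985 and 5531, against 2165 to 4463 (median 2680). Ribosome biogenesis genes had 14 of 50 higher and 4 lower (median 0.25, or 0.17 without let-7f male 1; median transcript 2938 bases). Among them, Nhp2, a protein of the H/ACA particles that guide pseudouridylation of RNA, had 7664, 3204 and 2249, against 1191 to 2055 (median 1356). Cytosolic aminoacyl-tRNA synthetases, which charge tRNAs, had 6 of 20 higher and 1 lower (median 0.25, or 0.16 without let-7f male 1). All of these counts stand beside 14.7% of all other genes higher and 16.6% lower.

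Small proteins of other large complexes also lay higher, with list medians below the 1.33 of the ribosomal protein genes. With 1 ribosomal-rich library left out, the lowest medians were 0.87 (respiratory chain), 0.68 (mitochondrial ribosomal proteins) and 0.62 (proteasome). For the ribosomal protein genes the lowest was 0.92. Nuclear genes of the respiratory chain had 66 of 82 higher and 1 lower with no overlap (median 1.19; median transcript 875 bases). Atp5f1e, the epsilon subunit of ATP synthase, had 66597, 18323 and 9958 in the ribosomal-rich libraries, against 3412 to 9620 (median 4917), a difference of 2.12. Mitochondrial ribosomal proteins had 67 of 78 higher and 0 lower (median 0.92). Mrpl52 of the mitochondrial large subunit had 9651, 3437 and 2127, against 990 to 1738 (median 1135). Sm and LSm proteins, the rings of splicing and decay particles, had 15 of 19 higher and 0 lower (median 1.05, or 0.69 without let-7f male 1), among them Snrpd2, with 25103, 9008 and 5808 against 2560 to 5151 (median 3240). Proteasome subunits had 24 of 31 higher and 0 lower (median 0.87). Of all other genes, 14.7% lay higher and 16.6% lower with no overlap.

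Transcripts made inside mitochondria, also short, gave a mixed picture. Of 12, 1 lay higher and 0 lower with no overlap (median -0.26; median transcript 870.5 bases), and relative to their length class the median was -0.87. Without let-7f male 1 the list median was -0.06 and without vehicle male 2 it was -0.16, and the list's score in vehicle female 1 (0.27) lay above that of every remaining library (highest 0.24). mt-Co2, a subunit of cytochrome c oxidase, was the 1 gene that lay higher, with 44200, 25706 and 44309 against 12447 to 23696 (median 16568). mt-Nd4, a subunit of complex I, had 6440, 9828 and 14668, against 9136 to 20058 (median 15069). These RNAs are made and polyadenylated by a separate machinery.

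Lars2, the nuclear gene of the mitochondrial leucyl-tRNA synthetase (chromosome 9 from 123366927 to 123462666, plus strand), took up an unusual share of some libraries. It held 2.21%, 0.228% and 0.686% of the ribosomal-rich libraries, against 0.0416% to 1.39% of the remaining ones, with vehicle female 4 at 1.39%. The groups overlapped. As a list the 17 mitochondrial aminoacyl-tRNA synthetases had 1 higher and 1 lower with no overlap (median 0.19, or 0.12 without let-7f male 1).

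Some lists of longer transcripts had more members lower than higher. Zinc finger genes (median transcript 3411.5 bases) had 16 of 391 higher and 119 lower with no overlap (median -0.32), and clustered protocadherins, adhesion proteins of neurons, 0 of 55 higher and 16 lower (median -0.81, or -0.53 without let-7f male 1; median transcript 4721.5 bases). Relative to their length class the medians were -0.16 and -0.50. Both counts stand beside 14.7% of all other genes higher and 16.6% lower. The protocadherins share exons, and many zinc finger genes have near-identical copies, so their single values are uncertain. Matrix and collagen genes, with a median transcript of 6190 bases, had 0 of 28 higher and 6 lower (median -0.13), while 37.2% of all other genes over 4 kb lay lower. Relative to length class their median was 0.17. The list median was 0.10 without let-7f male 1, and -0.29 without vehicle male 2 or without vehicle female 1. Col4a1, a basement membrane collagen, had 10416, 11478 and 12566, against 16871 to 28625 (median 24122).

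Known targets of let-7, a list added after the data were seen, had 0 of 24 higher and 11 lower (median -0.53). Of all other genes, 16.6% lay lower with no overlap, and of those over 4 kb 37.2% did. The median transcript of the list was 4574 bases, and its median relative to length class was -0.16. Plag1, a growth-promoting transcription factor, had 132, 158 and 191 in the ribosomal-rich libraries, against 340 to 708 (median 579). Ccnd2, a G1 cyclin, had 11779, 10187 and 11561, against 16391 to 34990 (median 26833). Of the 3 ribosomal-rich libraries, vehicle male 2 and vehicle female 1 had the lowest scores of this list (-0.59 and -0.41), and let-7f male 1 had -0.22. Between let-7f and vehicle fetuses over both sexes the same list had a median log2 difference of 0.02.

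The genes with the largest differences outside the ribosomal protein genes, among those with a mean of at least 50 and no overlap, were read next. Of the 10 highest, 6 are made in liver, namely Apoa2, Apoc2, Afp, Apoc1, F12 and Alb. That ranking leaned on vehicle female 2, in which these genes were low. Without it and vehicle male 1, Apoc1 was the 1 liver gene among the 10 highest, 4 of the 10 were shared, and the difference was 1.59 for Afp, 1.73 for Apoa2 and 1.40 for Alb, against 2.24, 2.33 and 2.22 with all libraries. Afp, the fetal serum protein alpha-fetoprotein, had 123595, 89517 and 58798, against 122.5 to 51321 (median 29848). Apoa2, an apolipoprotein, had 2905, 2057 and 1610, against 4.38 to 1345 (median 646). The others were Myh13, a myosin of extraocular muscle, Cryba4, a lens crystallin, Ms4a7, a membrane protein of macrophages, and Gstp3, a glutathione transferase.

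Myh13 (chromosome 11 from 67321658 to 67371586, plus strand) had the largest difference of the 10, at 5.35. Its values were 1135, 1563 and 303 in the ribosomal-rich libraries, against 7.97 to 77.3 (median 14.9) in the remaining ones. Its transcript of 6062 bases is long, so it stood against the length gradient. It lies among closely related skeletal myosin genes, and reads may be assigned to it from them.

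On the lower side the 10 genes were Zfp967, Adnp, Onecut1, Prdm15, Zkscan16, B3gnt2, Gpr63, Kif5c, Hectd4 and Pabpc4l. Adnp, a homeodomain chromatin protein of the ChAHP complex (chromosome 2 from 168180986 to 168207112, minus strand), had 201, 323 and 623, against 1549 to 4788 (median 3171). Let-7f female 3 (1752) and vehicle female 4 (1549) were the lowest of the remaining libraries. Kif5c, a neuronal kinesin heavy chain, had 5485, 2870 and 4870, against 8322 to 19581 (median 17626). Hectd4, a ubiquitin ligase with a transcript of 15482 bases, had 3205, 2194 and 3207, against 5568 to 13885 (median 9309). Zfp967 was at 0, 0 and 10.7, against 56.8 to 139 (median 98.0), but it is 1 of a cluster of similar zinc finger genes on chromosome 2 and its reads may belong to copies.

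A minority of genes went against the gradient. Of 5122 genes over 4 kb with a mean of at least 50 and an established symbol, 184 lay higher with no overlap. The 5 largest were Myh13, C3, Sap18, Dnah14 and Stab1. C3, the central complement protein made in liver, had 7114, 3829 and 3909, against 51.6 to 3212 (median 1239). Stab1, a scavenger receptor of sinusoidal endothelium and macrophages, had 17480, 6496 and 4392, against 2177 to 3644 (median 2659). Of 741 genes under 1 kb with such a mean, 20 lay lower, and all but Hoxa6 are predicted genes, pseudogenes or clone names. The 1 among 530 with an established symbol, Hoxa6, is a patterning gene of the trunk. It had 47.6, 58.7 and 68.8, against 145 to 207 (median 160).

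Cell type lists differed in how far they moved with the split. Their counts stand beside 14.7% of all other genes higher and 16.6% lower with no overlap. In a whole fetus, fewer cells of a type and less RNA per cell cannot be told apart. Of 62 defining markers in the table, 61 were above 0 in every ribosomal-rich library, the exception being the trophoblast gene Prl2c2, at 0 in vehicle female 1. Liver genes had 10 of 19 higher and 0 lower with no overlap (median 1.53). Their summed value was 226262, 217506 and 162369, against 2826 to 134309 (median 76181). Without vehicle female 2 and vehicle male 1 the median was 1.13. The part of liver content in the other differences was not tested.

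Erythroid genes had a summed value of 1182820, 1333930 and 1094740, against 187272 to 818353 (median 553200), with 4 of 25 higher (beside 14.7% of all other genes) and 0 lower. Their median was 0.43, or 0.27 without vehicle female 2 and vehicle male 1 and 0.66 without vehicle female 1. The adult-type globin gene Hbb-bs had 110067, 314066 and 246539, against 5329 to 136652 (median 81737). The embryonic globin gene Hbb-bh1 was high in 1 library only, with 52472, 5797 and 5097 against 2354 to 21452 (median 8314). Heart muscle genes had 3 of 17 higher and 1 lower (median 1.03, or 0.66 without let-7f male 1), and their summed value was 134617, 61509 and 42292, against 26623 to 45113 (median 31597). The groups overlapped in this sum. Myh6, the atrial myosin heavy chain, had 46397, 12977 and 7802, against 3346 to 8711 (median 4013).

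Skeletal muscle (6 of 21 higher, median 0.59), macrophage (8 of 15, median 0.72) and surface epithelium genes (5 of 13 higher and 1 lower, median 0.72) also had higher list medians. Relative to length class these were 0.40, 0.12 and 0.41. All 8 macrophage genes that lay higher were under 2 kb. The macrophage markers Csf1r (-0.42), Adgre1 (-0.32) and Mrc1 (-0.12) had lower means with overlap, and Cd68 lay higher (0.60). The muscle markers Myog, Myod1, Acta1, Ckm and Ttn overlapped. Of the epithelial markers, Trp63 (-0.30) and Krt5 (0.52) overlapped, and Krt14 and Krt15 lay higher. The summed values of these lists did not overlap, with macrophage genes at 7144, 7233 and 6334 against 3628 to 6178 (median 4784). Neuron genes had 5 of 20 higher and 5 lower (median -0.21, or -0.07 without let-7f male 1 and -0.34 without vehicle female 1), with summed values of 111486, 105638 and 110454 against 109715 to 135552 (median 120289). Neural progenitor genes had 2 of 20 higher and 3 lower (median -0.12, or -0.05 without let-7f male 1 and -0.19 without vehicle female 1). Endothelial genes had 3 of 16 higher and 3 lower (median 0.05, or 0.03 without let-7f male 1 and 0.14 without vehicle male 2). The neural progenitor and endothelial counts were near the shares over all other genes, 14.7% higher and 16.6% lower. Trophoblast genes had 0 of 8 higher and 1 lower (median -0.28, ranging from -0.47 without let-7f male 1 to -0.11 without vehicle male 2, and -0.13 without vehicle female 2 and vehicle male 1). The 1 gene was Peg10, a retrotransposon-derived imprinted gene with a transcript of 6667 bases, at 8238, 7308 and 9945 against 12424 to 23401 (median 16286). It made up most of the list's summed value, 8549, 7462 and 10275 against 12669 to 25247 (median 16541).

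Markers of 1 cell type could lie apart in opposite directions. Over all 14 cell type lists together, 99 genes under 2 kb had a median of 1.04, with 43 higher and 0 lower, and 82 genes over 4 kb had a median of -0.20, with 2 higher and 20 lower. The lists were not uniform, since the few genes over 4 kb had positive medians in skeletal muscle (0.57, 5 genes), yolk sac and gut endoderm (0.50, 3 genes), heart muscle (0.43, 3 genes) and liver (0.33, 1 gene), and 4 trophoblast genes under 2 kb had a median of -0.44. In the endothelium, Egfl7, a secreted vessel protein with a transcript of 1391 bases, had 7655, 3477 and 2693, against 1197 to 1929 (median 1333). Cdh5, the endothelial cadherin with a transcript of 3995 bases, had 1222, 1139 and 1493, against 1903 to 3672 (median 2961). In neurons, Stmn2, a microtubule regulator of growth cones (2073 bases), had 12646, 11693 and 9752, against 6364 to 8147 (median 7584). Dcx, the microtubule protein of migrating neurons (9074 bases), had 5308, 4410 and 6161, against 6882 to 17029 (median 12736). Elavl3, a neuronal RNA-binding protein with a long transcript (5014 bases), lay higher, with 12667, 7932 and 7914 against 5275 to 7447 (median 6494).

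The 3 ribosomal-rich libraries were not alike in everything. Cartilage genes had 3 of 17 higher and 2 lower, beside 14.7% and 16.6% of all other genes. Their median of 0.41 was 1.01 without let-7f male 1, 0.02 without vehicle male 2 and 0.13 without vehicle female 1. They had a score of -0.38 in let-7f male 1, 0.87 in vehicle male 2 and 0.56 in vehicle female 1, against -0.72 to 0.45 in the remaining libraries. Lens genes, of which 6 of 13 lay higher and 0 lower (median 1.56), had scores of 0.27, 1.93 and 1.36, against -1.79 to 0.49. Cryga, a gamma crystallin of lens fibres, had 26.4, 315 and 207, against 2.87 to 104 (median 59.5). Matrix genes had -0.54, 0.07 and 0.08, against -0.19 to 0.30. Let-7f male 1 thus differed from the 2 vehicle libraries in cartilage, lens, matrix and embryonic globin genes, while all 3 shared the length gradient. Principal components were taken over the compared genes, with ribosomal protein genes left out. The first, with 43.1% of the variance, placed the 3 libraries at its upper end (126, 67.0 and 32.4, against -39.2 to 8.60). On the second (13.96%), let-7f male 1 lay at 46.4 and the vehicle libraries at -44.8 and -33.7.

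Whether the ribosomal protein share followed the labels was tested over the samples, with treatment permuted within sex and sex within treatment. The share was 6.94% ± 4.99 in let-7f and 5.31% ± 1.83 in vehicle fetuses (SD, n = 5 and 9). The difference within sexes was 2.16 percentage points (exact permutation test, two-sided p = 0.393, adjusted over 4 tests 0.524). It was 7.04% ± 4.74 in males and 5.03% ± 1.10 in females (SD, n = 6 and 8), with a difference within treatments of 2.87 percentage points (exact permutation p = 0.213, adjusted 0.524). Without let-7f male 1 the treatment difference was -0.602, and without all 3 ribosomal-rich libraries the sex difference was -0.339. Neither label separated the libraries.

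The short-minus-long index gave 0.15 ± 0.80 in let-7f and -0.05 ± 0.54 in vehicle fetuses (SD, n = 5 and 9; exact permutation p = 0.552, adjusted 0.552). It was 0.19 ± 0.87 in males and -0.10 ± 0.37 in females (SD, n = 6 and 8; exact permutation p = 0.365, adjusted 0.524). The smallest p these designs allow is 0.00119 for treatment and 0.000794 for sex. The let-7f difference in the share was 4.77 percentage points in males and -0.45 in females (exact permutation test of the difference between the sexes, p = 0.160).

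**Figure D4:**
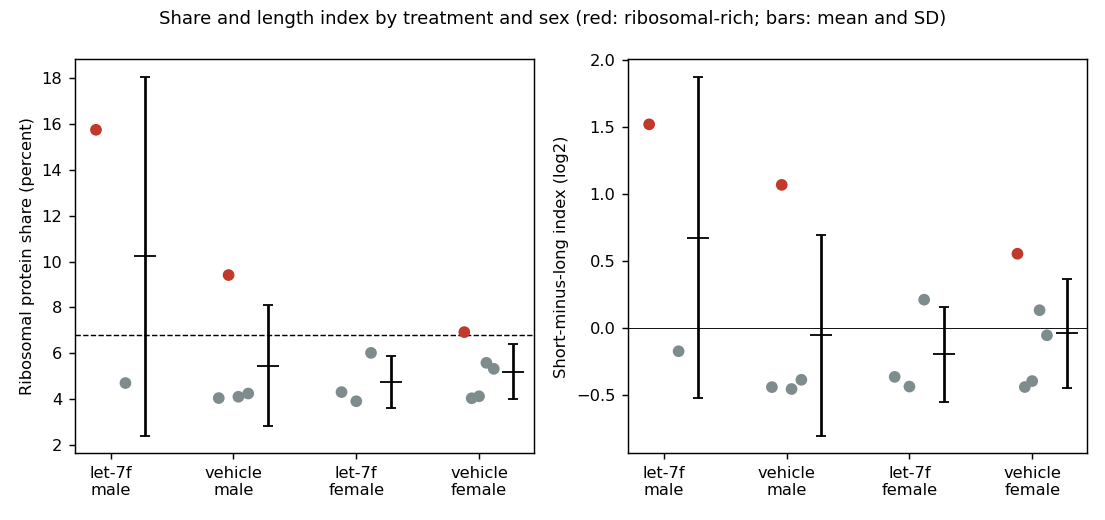
Ribosomal protein share in percent (left) and short-minus-long index on the log2 scale (right) by treatment and sex, 1 point per library, with mean and SD beside the points. The 3 ribosomal-rich libraries (red) fall in 3 different groups, let-7f males, vehicle males and vehicle females.

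With 1 of the 2 let-7f males ribosomal-rich, the let-7f contrast in males showed the same gradient. The median log2 difference of let-7f from vehicle males was 0.99 for ribosomal protein genes, 0.56 for other genes under 1 kb and -0.16 for genes over 4 kb. Without the 3 ribosomal-rich libraries these medians were 0.24, 0.18 and -0.09, with let-7f male 2 the single let-7f male. In females the medians were -0.16, -0.09 and 0.06 with all libraries and -0.05, -0.01 and -0.01 without vehicle female 1. Over both sexes limma called 0 of 17400 genes (0%) at an adjusted p of 0.05, with 483 at an unadjusted p under 0.05. On recovered reads edgeR called 0 and DESeq2 8. Without the 3 ribosomal-rich libraries limma called 0, with 389 at an unadjusted p under 0.05. When let-7f male 2 was dropped, so that the ribosomal-rich let-7f male 1 stood by itself in its group and its spread was borrowed from the others, the count was 868.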

How the data were processed

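The deposited table holds 1 signal value for each gene in each library, named in the labels as normalized counts (normcounts). Tools listed by the submitters' processing notes are kallisto 0.50.1, DESeq2 1.48.2, Trimmomatic 0.39, MultiQC 1.28 and FastQC 0.12.1, with GRCm39 as the build; their roles are not given in the sources used here. All values (100%) were whole multiples of what 1 read was worth in their library (largest distance from a whole number 1.16e-10), so reads were recovered; edgeR called 0 genes on them. A row without a gene name, 0.0180% to 0.0334% of a library, was left out. Of 18132 named genes, 17400 with a mean of at least 10 were compared as log2(value + 1). Transcript lengths came from GENCODE M21 on GRCm38, an older build. limma 3.58.1 in R 4.3.3 (eBayes with trend, 4 group means, Benjamini-Hochberg) gave the let-7f comparison; edgeR 4.0.16 and DESeq2 1.42.0 were alternatives. Permutation tests were exact over 840 or 1260 arrangements. Procedures were tested on simulated data. In 20 pairs of libraries from 1 group, the chi-square of the reads was 18.6 or more times its degrees of freedom, so none was a duplicate.

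The libraries and gene lists were chosen with earlier results of these data known. Named genes were those with no overlap, a mean of at least 50 and an established symbol, the 10 with the largest difference each way, up to 5 each way against the length gradient, 2 to 4 per list, and a fixed set. Malat1, Neat1 and Gas5 of that set, and a list of nuclear-retained long RNAs, were not analysed here. Known let-7 targets were added after the data were seen.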

Additional observations from a re-analysis of the deposited data

Results flagged for a closer look

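Within the vehicle males, vehicle male 2 lay far from the other 3 libraries, which were close to each other. Its ribosomal protein share was 9.41%, against 4.05% to 4.24%. Its short-minus-long index was 1.07, against -0.45 to -0.38. The same library stood apart in the scores (mean log2 deviation over the genes of a list) of lens genes (1.93, against 0.18 to 0.46), heart muscle genes (0.56, against -0.38 to -0.31), macrophage genes (0.67, against -0.20 to -0.07), neuron genes (-0.23, against 0.11 to 0.15) and known let-7 targets (-0.59, against 0.06 to 0.11). Vehicle male 1 stood apart in trophoblast genes (2.75, against -0.74 to -0.28). These 8 came from 28 examinations, of the vehicle males and the vehicle females over 14 quantities taken from the same libraries. The quantities are not independent, and vehicle male 2 was chosen as ribosomal-rich by its share. No chance rate is therefore given, and nothing is read from the flags of that library. Groups of 2 or 3 libraries, the let-7f groups, were not examined.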

How the results depend on the processing

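Which libraries were rich decided the counts. The 2-fold counts without overlap (934 higher, 422 lower) ranged from 481 to 1823 higher and 386 to 890 lower with each ribosomal-rich library left out in turn. With let-7f male 1 alone against the 11 libraries under the threshold they were 3005 and 1682, as fewer libraries must not overlap. The difference in the index (1.30) kept its sign in all alternatives, from 0.89 with the median transcript length to 1.77 with let-7f male 1 alone, and from 1.07 to 1.54 with a rich library left out. The tests by label changed sign without certain libraries: without let-7f male 1 the treatment difference was -0.602 percentage points in the share and -0.147 in the index, and the sex difference in the index -0.00400. Without the 3 ribosomal-rich libraries the sex difference was -0.339 in the share and -0.118 in the index. Leaving out 1 library at a time gave -0.602 to 4.92 and -0.147 to 0.709 for treatment, and 0.105 to 5.63 and -0.00400 to 0.851 for sex. None of these passed 0.05. Genes called for let-7f ranged from 0 to 868 (without let-7f male 2), DESeq2 called 8, and all other alternatives 0. Of 385 list medians over 35 lists, 355 moved by less than the spread between ribosomal-rich libraries and 3 changed sign: cartilage (-0.40) and immediate early genes (-0.10) with let-7f male 1 alone, and matrix genes (0.10) without it (-0.29 to 0.10 with 1 ribosomal-rich library left out). The cause was not tested.

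Libraries with the same replicate number did not deviate together (median correlation -0.22 over 16 pairs, against 0.05 over 55 others). Each group was centred first, so the 2 let-7f males mirror each other. The check therefore cannot tell whether the numbers mark a litter or a batch. With the replicate number as a block, the differences were 1.53 percentage points (treatment) and 2.07 (sex) in the share, 0.16 and 0.28 in the index, and 0 genes were called. Leaving out vehicle female 2 and vehicle male 1, and the index as a covariate (0 genes called, 1151 at an unadjusted p under 0.05), were chosen after seeing the data. Arms of 2 to 5 fetuses, and 3 rich libraries, limit the precision of every value here.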

Other observations

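Stress-related lists moved little as lists, while single short members lay higher in the ribosomal-rich libraries. Over all other genes, 14.7% lay higher and 16.6% lower with no overlap. Of those with 600 to 1000 bases, 47.5% lay higher, and of those with 1000 to 1500 bases, 42.5%. Targets of ATF4, the transcription factor of the integrated stress response, had 3 of 18 higher and 0 lower with no overlap (median 0.36). Ddit3, a pro-apoptotic factor with a transcript of 890 bases, had 1617, 1031 and 723 in let-7f male 1, vehicle male 2 and vehicle female 1, against 404 to 623 (median 476) in the remaining libraries. Targets of p53 had 2 of 16 higher and 5 lower (median -0.13, or -0.22 without vehicle female 1). Bax, a promoter of apoptosis (1100 bases), had 8434, 5888 and 4570, against 2626 to 4216 (median 3238), and Mdm2, the ubiquitin ligase of p53 (3145 bases), had 1506, 1969 and 1899, against 2057 to 2857 (median 2294). Immediate early and heat shock genes had 0 of 18 higher and 1 lower (median 0.16, or 0.11 without vehicle male 2 and 0.06 without vehicle female 2 and vehicle male 1), and glycolysis and hypoxia genes 4 of 20 higher and 0 lower (median 0.35, or 0.22 without let-7f male 1).

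Proliferation genes had 3 of 28 higher and 3 lower (median 0.07, or 0.12 without vehicle male 2), beside 14.7% higher and 16.6% lower over all other genes. Birc5, the mitotic protein survivin, had 10312, 5892 and 4980, against 2818 to 4373 (median 3149), and Mcm2, a subunit of the replicative helicase, had 4057, 4373 and 5082, against 6373 to 9839 (median 7988). Replication-dependent histones, whose transcripts mostly lack a poly-A tail, had a median of 1.33 (0.78 without let-7f male 1) with 4 of 39 higher and 0 lower, and their scores spread widely in both sets of libraries (1.86, 0.32 and 0.65, against -1.10 to 1.05). Yolk sac and gut endoderm genes had 1 of 10 higher and 2 lower (median 0.28, or 0.06 over members with a mean of at least 50 and 0.14 without vehicle female 2 and vehicle male 1). The host RNA Snhg4, the 1 snoRNA host compared, had 358, 533 and 374, against 555 to 1190 (median 807).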
